A study of Sus scrofa with 15 samples.

Results

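The genes PNPLA2, PNPLA3, ABHD5 and PLIN2, of triglyceride breakdown and fat storage, were followed in backfat of Iberian pigs on 2 diets. Members were chosen by gene symbol: every probe set whose array annotation named exactly one of these genes was taken, which gave 4 genes of 1260 named ones and 4 probe sets of 3272, 1 per gene. The animals were 15 castrated males of the Iberian breed, a fat-depositing local pig, and 1 Affymetrix porcine array was hybridised per animal. A control group of 7 pigs received a standard diet with 3130 kcal of crude energy per kg of feed, and 8 pigs received a high-oleic diet, enriched in oleic acid, with 3360 kcal per kg. Control pigs were given 10% more feed so that both rations supplied like energy and protein. Diets began at 28 kg live weight and lasted 24 weeks, with slaughter planned at 110 kg. The sample was the inner layer of the subcutaneous fat over the back, taken at the last rib. No animals were pooled.

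A fat cell stores triglyceride in a droplet whose surface proteins decide which enzymes reach the lipid. PNPLA2, also called adipose triglyceride lipase, removes the first fatty acid of a triglyceride, and ABHD5, also called CGI-58, is the protein that activates it. PNPLA3, or adiponutrin, is a close relative of PNPLA2 that sits on droplets, binds ABHD5 and is known to follow feeding and lipid synthesis, whereas PNPLA2 is known for its induction in fasting. PLIN2, or adipophilin, coats droplets in most cell types, while mature fat cells use mainly PLIN1. Whether an oleic acid diet is accompanied by other levels of these transcripts is the question of the diet comparison.

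Values are log2 signals, so a difference of 1 is a 2-fold difference, and levels of different probe sets are not set against each other. Leaving out the manufacturer's 17 controls left 3255 probe sets to test. In each of them 3 or more arrays differed by 1.5-fold or more from the probe set's median, so less variable genes were not analysed here. The median signal of an array was 6.38 to 6.67, and precision is limited by having 15 arrays. The labels number the animals within each diet, and animals 1 to 4 differed from animals 5 to 8 in array measures on both diets. Array medians were at most 6.56 in the first set and at least 6.59 in the second, and the spiked control signal was lower in the first set within each diet. The labels name no batch, so values are also given within these sets, which were formed after the array measures were seen. High-oleic animal 8 stood apart on the first component of expression, which held 23.3% of the variance, at 48.6 against 17.9 or less in the other animals. A gene is called measured here if a tested probe set was annotated with that gene alone. Among 12 defining fat cell markers only LEP, which encodes leptin, was measured in this sense, so the tissue label could be checked against that gene alone. On the brighter of its 2 probe sets, LEP lay between 10.29 and 12.29 on the control diet, with a median of 11.16. On the high-oleic diet it lay between 11.04 and 12.52, with a higher median of 11.81. The part of this marker in the diet differences of the 4 genes was not tested. In bulk tissue, fewer cells of a type and less RNA per cell cannot be told apart.

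PNPLA2 had a higher mean on the high-oleic diet, but no difference passed the test over all probe sets. Its signal ranged from 8.11 to 9.29 with a median of 8.27 in the control animals. On the high-oleic diet it ranged from 8.52 to 9.37 with a median of 9.13. All 8 high-oleic animals lay above the control median and 4 of 7 control animals lay below every high-oleic animal, yet the groups overlapped, since control animals 3, 5 and 6 stood at 9.29, 8.53 and 8.80. High-oleic animals fell on either side of a gap, with animals 1, 4 and 6 between 8.52 and 8.54 and the 5 others at 9.06 or more. The means were 8.98 ± 0.38 (SD, n = 8) and 8.47 ± 0.44 (SD, n = 7). The difference was 0.52, or 1.43-fold, with 0.25 as its standard error and a 95% interval from 0.0037 to 1.03.

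PNPLA3 had the largest mean difference of the 4 genes, and it too did not pass. On the control diet its signal ran from 8.98 to 10.50 with a median of 9.40, and on the high-oleic diet from 9.06 to 11.21 with a median of 10.40. Of 8 high-oleic animals, 4 exceeded every control animal, namely animals 2, 5, 6 and 8. High-oleic animal 1, at 9.06, lay among the lowest control animals, and control animals 3 and 6, at 10.50 and 10.34, lay among the high-oleic ones. These 2 control animals were also the highest of their group for PNPLA2. The mean was 10.30 ± 0.68 (SD, n = 8) against 9.55 ± 0.62 (SD, n = 7). This amounts to 0.74, or 1.67-fold, with 0.32 as the standard error and a 95% interval from 0.07 to 1.42. Without high-oleic animal 1 the difference was 0.92.

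**Figure D1:**
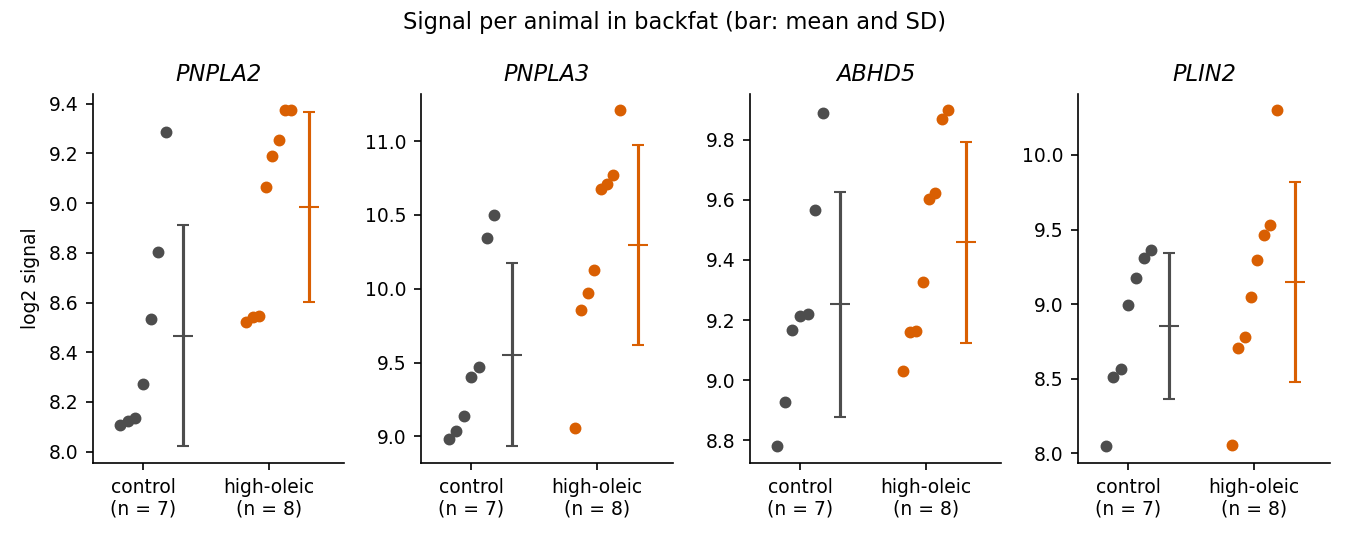
Log2 signal (y axis) of the 4 genes in each animal by diet (x axis), with 1 point per animal and a bar for the mean and SD beside each group. The groups overlap for every gene; the 8 high-oleic animals of PNPLA2 all lie above the control median of 8.27, and PLIN2 has its highest point, 10.30, in high-oleic animal 8.

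ABHD5, the activator of PNPLA2, varied least and its groups overlapped almost wholly. In control animals the signal lay between 8.78 and 9.89 with a median of 9.21, and in high-oleic animals between 9.03 and 9.90 with a median of 9.47. Its range over the 15 animals was 2.17-fold, and its SD of 0.36 exceeded that of 1.38% of the tested probe sets. The means were 9.25 ± 0.37 (SD, n = 7) on the control and 9.46 ± 0.34 (SD, n = 8) on the high-oleic diet. They differed by 0.21 (standard error 0.23, 95% interval -0.27 to 0.69), which holds differences from 0.827-fold to 1.61-fold. Without control animal 2, the highest control, it was 0.31, and without control animal 4, the lowest, 0.13.

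PLIN2 varied between animals within both diets, and its groups overlapped. Its range over the 15 animals was 4.77-fold with an SD of 0.59, against 4.68-fold and 0.74 for PNPLA3. The control animals lay between 8.05 and 9.36 with a median of 8.99, the lowest being animal 5. The high-oleic animals spread from 8.06 in animal 5 to 10.30 in animal 8, with a median of 9.17, and 3 of the 8 exceeded every control animal. The means of 8.85 ± 0.49 (SD, n = 7) and 9.15 ± 0.67 (SD, n = 8) differed by 0.30 (standard error 0.30, 95% interval -0.33 to 0.93). That value was 0.13 when high-oleic animal 8 was left out, 0.16 when control animal 5 was, and 0.45 when high-oleic animal 5 was, so its size rested on single animals.

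In limma with Benjamini-Hochberg adjustment over 3255 probe sets, the adjusted p was 0.999 for each of the 4 genes. No probe set of the table passed (0% at an adjusted p under 0.05). Before adjustment 2 of the 4 genes, PNPLA2 and PNPLA3, were under 0.05 in limma. Of all probe sets 3.93% were under it, 2.03% with the higher mean on the high-oleic diet and 1.9% with the lower. PNPLA2 was under it in 5 and PNPLA3 in 7 of the 15 fits that leave out 1 animal, though no adjusted p passed in any. These 2 genes correlated over the same animals (r = 0.792), so their 2 results are not independent. The members were also chosen with earlier results of these data known. The two-sided exact permutation test over 6435 splits gave 0.0342 for PNPLA2, 0.05004 for PNPLA3, 0.274 for ABHD5 and 0.353 for PLIN2, each with an adjusted p of 0.999. It placed 0% of all probe sets under 0.05 after adjustment and 4.18% before. All 4 means were higher on the high-oleic diet, as were 46.8% of all probe sets, whose median difference was -0.025. Within animals 1 to 4 the difference was 0.50 for PNPLA3, 0.40 for PNPLA2, 0.30 for ABHD5 and 0.063 for PLIN2. Within animals 5 to 8 it was 0.97, 0.63, 0.11 and 0.56, with no limma adjusted p under 0.776 in either set. With array weights in limma the difference was 0.46 (95% interval -0.18 to 1.10) for PNPLA3 and 0.37 (-0.13 to 0.86) for PNPLA2.

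Whether the diet difference itself differed between the genes was tested on the difference of their log2 signals in each animal. PNPLA3 exceeded ABHD5 in diet difference by 0.54 (95% interval -0.45 to 1.52) and PLIN2 by 0.45 (-0.64 to 1.53). PNPLA2 exceeded its activator ABHD5 by 0.31 (-0.37 to 0.99) and PLIN2 by 0.22 (-0.70 to 1.14). The difference of PNPLA2 minus that of PNPLA3 was -0.23 (-0.74 to 0.29), and of ABHD5 minus PLIN2 -0.09 (-0.90 to 0.72). None of the 6 pairs passed, with two-sided exact permutation p-values from 0.256 to 0.819 and adjusted p-values from 0.580 to 0.819. Leaving out 1 animal moved several of these values by over 1.5 times. PNPLA2 minus PLIN2 ranged from 0.0091 without high-oleic animal 5 to 0.40 without control animal 3, and PNPLA2 minus ABHD5 from 0.15 without control animal 2 to 0.46 without control animal 3. PNPLA3 minus PLIN2 ranged from 0.23 without high-oleic animal 5 to 0.67 without high-oleic animal 1, and PNPLA2 minus PNPLA3 from -0.34 without high-oleic animal 1 to -0.11 without high-oleic animal 6. PNPLA3 minus ABHD5 ranged from 0.36 to 0.77, lowest without high-oleic animal 2. The intervals reach a 2-fold difference for PNPLA3 against ABHD5 and for both patatin-family genes against PLIN2.

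The 2 patatin-family genes varied together across animals, and this was the one relation among the 4 genes that passed. PNPLA2 and PNPLA3 gave r = 0.792 over 15 animals (permutation p = 0.00095, adjusted p = 0.0057 over 6 pairs) and rho = 0.761 (permutation p = 0.00147, adjusted p = 0.00882). Without high-oleic animals 5 and 7, the farthest from the PNPLA2 median, r was 0.812. Leaving out each animal in turn kept r between 0.761 and 0.861, and the adjusted p stayed under 0.05 each time. With the diet means removed r was 0.708, and with the spiked control signal removed as well it was 0.679 (permutation p = 0.00508). With diet and the set of animal numbers removed r was 0.692 (permutation p = 0.00389, adjusted p = 0.0233). Within animals 1 to 4 of both diets r was 0.844 (exact permutation p = 0.00794, adjusted p = 0.0476), and within animals 5 to 8 it was 0.698 (exact permutation p = 0.0881, adjusted p = 0.529), where the relation did not pass. Nor did it pass over the 7 differences between same-numbered animals of the 2 diets, at r = 0.811 (exact permutation p = 0.0315, adjusted p = 0.189).

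Within the control animals alone r was 0.935 (exact permutation p = 0.00278, adjusted p = 0.0333 over 12 relations within diets). Within the high-oleic animals it was 0.512 (exact permutation p = 0.185, adjusted p = 0.739). Without high-oleic animal 6, where PNPLA3 was 10.67 and PNPLA2 8.54, the pooled r was 0.861. Whether r differed between the diets was not tested.

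**Figure D2:**
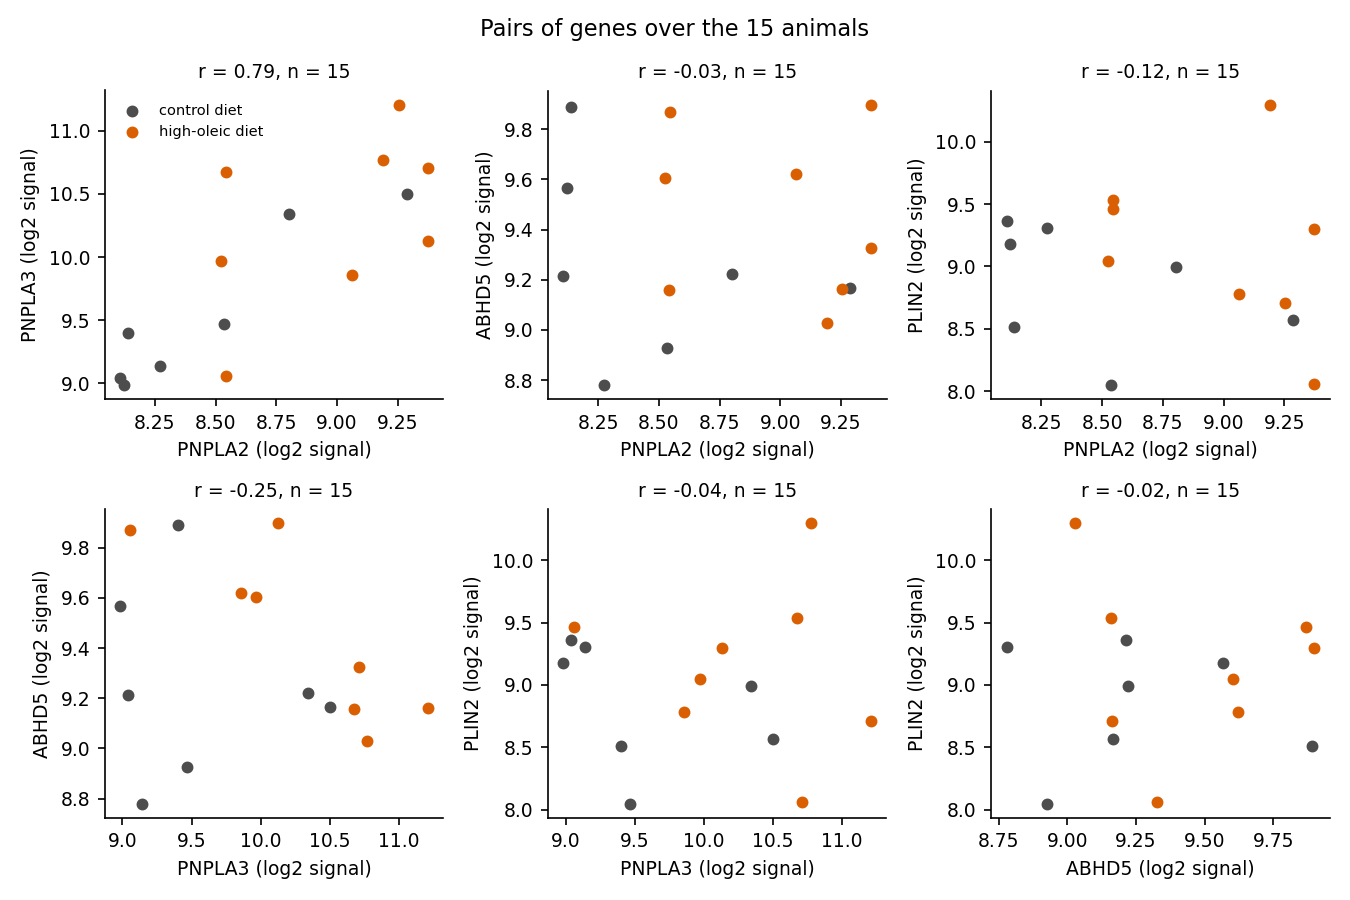
Log2 signals of each of the 6 pairs of genes over the 15 animals, 1 point per animal, coloured by diet, with Pearson r above each panel. PNPLA2 and PNPLA3 lie along a rising line with r of 0.79; in the other 5 panels r lies between -0.25 and -0.018.

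Among all 3254 other probe sets, the one whose pattern over the 15 animals was most like PNPLA2 was that of PNPLA3. In the other direction PNPLA2 was the third most like PNPLA3, behind a pair of probe sets without a gene name. With diet means removed PNPLA3 ranked 4 for PNPLA2, and PNPLA2 ranked 8 for PNPLA3. In control animals these ranks were 1 and 2, and in high-oleic animals 229 and 437. Probe sequences were not analysed here, so whether either probe set also detects the transcript of the other gene was not tested.

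None of the other 5 pairs, which join these genes to the activator or the droplet coat or the latter to each other, passed. PNPLA2 gave r = -0.028 with ABHD5 (permutation p = 0.919) and -0.12 with PLIN2 (permutation p = 0.671). PNPLA3 gave -0.25 with ABHD5 (permutation p = 0.371) and -0.038 with PLIN2 (permutation p = 0.894), and ABHD5 with PLIN2 gave -0.018 (permutation p = 0.949). The adjusted p was 0.949 for each of these 5, rho lay between -0.271 and 0.093, and without the 2 farthest animals r lay between -0.234 and 0.064. A p that misses the threshold does not show that the genes are unrelated. PNPLA3 with ABHD5 was further from 0 with diet means removed, at r = -0.493 (permutation p = 0.0627), with diet and live weight removed, at -0.502 (permutation p = 0.0577), and without control animal 4, at -0.451 (permutation p = 0.106). Within the high-oleic animals PNPLA3 and ABHD5 gave r = -0.841 (exact permutation p = 0.00898, adjusted p = 0.0539 over 12 relations), which missed the threshold, against -0.10 in the control animals (exact permutation p = 0.847). In that group the 4 animals with PNPLA3 at 10.67 or more had ABHD5 at 9.33 or less, and the 4 others had ABHD5 at 9.60 or more. Array measures moved with both genes in these same animals, in opposite directions. A measure of RNA quality, the actin 3′ minus 5′ signal, correlated at r = 0.649 with PNPLA3 (exact permutation p = 0.0812) and -0.630 with ABHD5 (exact permutation p = 0.0925). The spiked control signal gave 0.598 (exact permutation p = 0.115) and -0.626 (exact permutation p = 0.0959). Their part in the relation of PNPLA3 and ABHD5 within this diet was not tested.

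**Figure D3:**
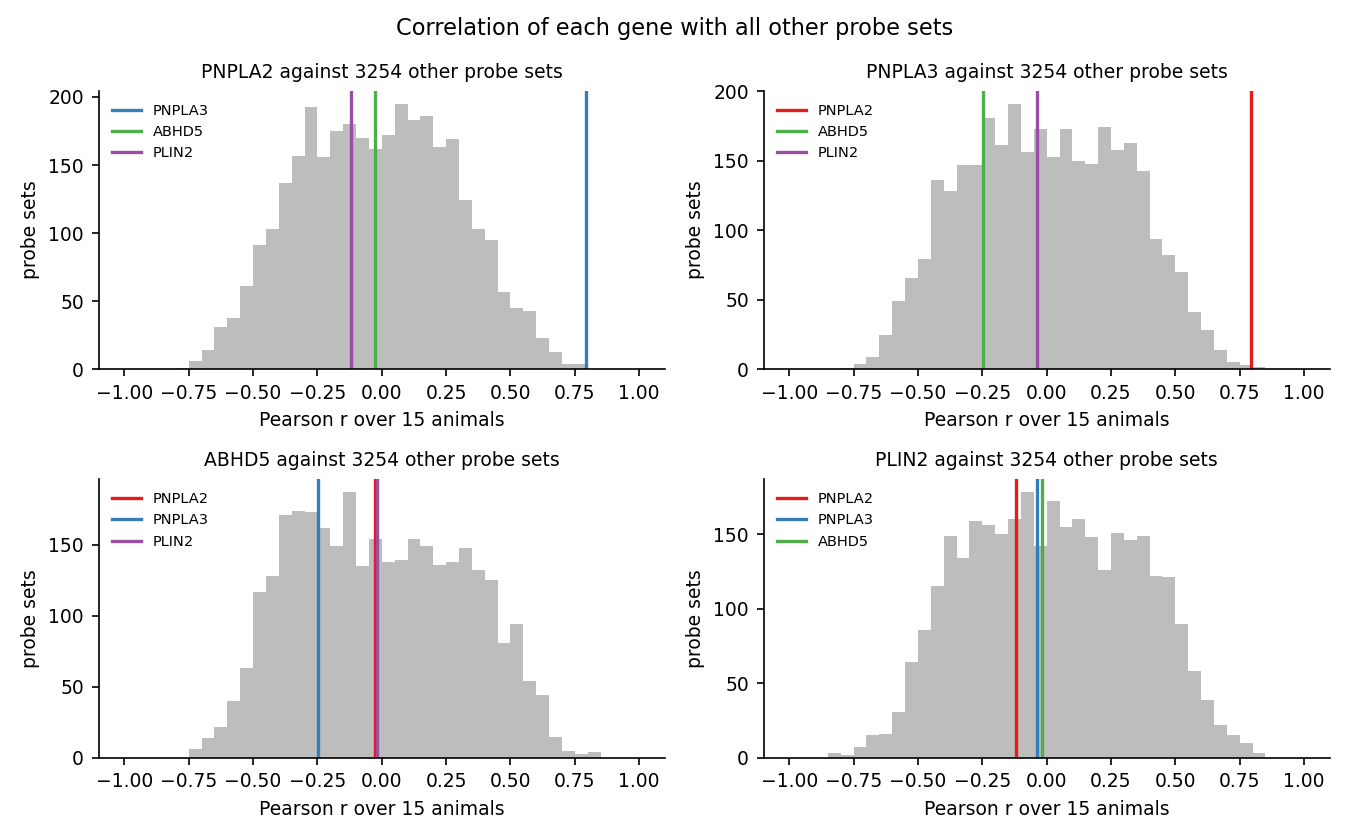
Histograms of Pearson r over the 15 animals between each gene and all 3254 other probe sets, with lines at the r of the other 3 genes. The PNPLA3 line, at 0.79, is at the upper end of the PNPLA2 histogram, while the lines of ABHD5 and PLIN2 stand in the bulk of every panel.

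The named genes closest to each member were listed by Pearson r over the 15 animals, with no test, since they are the extremes of 3254 comparisons. After PNPLA3, PNPLA2 was most like GYS1, the muscle-type glycogen synthase (r = 0.784), CLASRP, a splicing-related protein (0.718), PDE6C, a phosphodiesterase (0.707), and the lipid phosphatase PLPP2 (0.700). Its most opposite patterns were those of ALCAM, a cell adhesion molecule (-0.713), PTGS2, the inducible cyclooxygenase (-0.695), and the chaperone DNAJB4 (-0.668).

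PNPLA3 was most like UCHL1, a ubiquitin hydrolase (0.764), PTGS1, the constitutive cyclooxygenase (0.751), CLASRP (0.749) and CD59, an inhibitor of complement (0.730). Its opposite patterns were PTGS2 (-0.723), the early response factor EGR1 (-0.708) and PTGFR, a prostaglandin receptor (-0.674). The brightest EGR1 probe set, which is another one, gave r = -0.588 with PNPLA3. CLASRP and PTGS2 stood on both lists.

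ABHD5 had another set of neighbours. The closest was ABCD3, a transporter of the peroxisome membrane, with r = 0.846, and it held at 0.852 within control animals and 0.897 within high-oleic animals. GNPNAT1, an enzyme of the hexosamine route, followed at 0.820, HSDL2, a peroxisomal dehydrogenase-like protein, at 0.791, LRRN3 at 0.698 and the oxidase DUOX2 at 0.696. At the opposite end were the aminopeptidase ANPEP (-0.747), the adhesion protein NECTIN2 (-0.742) and PTGES, a prostaglandin E synthase (-0.719).

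PLIN2 was most like CXCR4, a chemokine receptor (0.844), a probe set annotated EF1ALPHA (0.819), GPR183, an oxysterol receptor of immune cells (0.813), the chaperone HSP90AA1 (0.800) and TLR2, a receptor of innate immunity (0.781). Opposite were PDLIM5 (-0.824), MPP7 (-0.815) and SRSF10 (-0.719), with rho of -0.654, -0.561 and -0.468. Without high-oleic animal 8, whose PLIN2 was highest, r was 0.769 for CXCR4, 0.778 for GPR183, 0.666 for HSP90AA1, 0.624 for TLR2 and 0.817 for EF1ALPHA. For the 3 opposite genes it was -0.720, -0.687 and -0.548. The summed signal of 4 measured macrophage markers of 10 gave r = 0.457 with PLIN2 (permutation p = 0.0866), rho = 0.379 (permutation p = 0.165), adjusted p = 0.554 over 32 relations with marker sums, and 0.330 without the 2 farthest animals. That sum ranged from 10.37 to 10.75 in control animals and from 9.28 to 11.70 in high-oleic animals, and its part in the PLIN2 values was not tested.

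Of 99 other genes of lipolysis, droplet structure, hormonal control, triglyceride synthesis and their transcription factors, 11 were measured, and 0 passed in either direction. On the brightest probe set of each gene, 8 had a higher and 3 a lower mean on the high-oleic diet. Of all probe sets 46.8% had a higher one. Their median difference was 0.14 against -0.025 over all probe sets, and 0.033 without high-oleic animal 8. Among 18 lipolysis enzymes and regulators, HILPDA, a droplet protein that inhibits PNPLA2, differed by 0.48 (95% interval -0.23 to 1.20) and by 0.51 on its other probe set, and ABHD4 by 0.10. Without high-oleic animal 8 these were 0.25 for HILPDA and -0.0083 for ABHD4. Of 19 droplet structure genes only VPS13C, a lipid transfer protein, was measured, at -0.04. Its signal was low, with means of 3.11 on the control and 3.07 on the high-oleic diet. Of 27 genes of hormonal control only PDE4B, which degrades cyclic AMP, was measured, at -0.70 (95% interval -1.32 to -0.07). Main partners of the members, such as LIPE, MGLL, G0S2 and PLIN1, were not analysed here.

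All 5 measured genes of triglyceride synthesis, of 20 listed, had the higher mean on the high-oleic diet, with none past the test. PCK1, which supplies the glycerol backbone from small precursors, differed by 1.47 (95% interval 0.14 to 2.79), with an SD of 1.76 among control animals and 1.21 among high-oleic animals. GK, which phosphorylates glycerol, differed by 0.66 (95% interval 0.08 to 1.24) and by 0.48 on its other probe set. LPIN1 differed by 0.22, ACSL5 by 0.14 and DGAT1, which completes the triglyceride, by 0.07, each with a 95% interval that included 0. Without high-oleic animal 8 LPIN1 was 0.13, ACSL5 0.033 and DGAT1 -0.040. Among transcription factors RXRG differed by 1.17 (95% interval 0.64 to 1.69), and EGR1 by -0.17 on its brightest probe set and by -0.59 on the other. The limma adjusted p was 0.315 for RXRG and 0.999 for the 10 other genes. Before adjustment RXRG, GK, PDE4B and PCK1 were under 0.05 in limma on their brightest probe sets, beside 3.93% of all probe sets. The lists were chosen with earlier results of these data known. With live weight in the fit RXRG was 1.01, PCK1 0.85, GK 0.41 and PDE4B -0.46, with a limma adjusted p of 0.9995 for each.

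**Figure D4:**
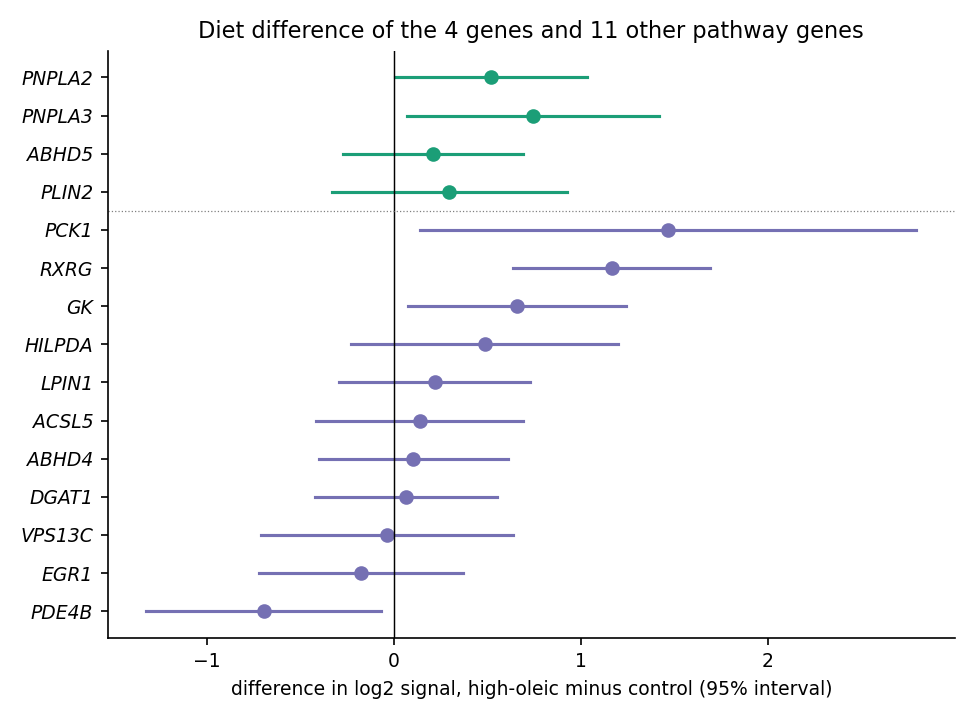
Difference in log2 signal between diets (x axis, high-oleic minus control, with 95% intervals from limma) for the 4 genes above the dotted line and 11 other pathway genes below it, on the brightest probe set of each gene. The intervals of PNPLA2, PNPLA3, PCK1, RXRG, GK and PDE4B do not include 0 before adjustment, and none of the 15 genes passed after it. Of all probe sets 3.93% had an unadjusted limma p under 0.05. The genes were listed with earlier results of these data known.

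Of 44 correlations between the 4 genes and these 11, none passed, the lowest adjusted p being 0.239. The highest r was that of PNPLA3 with DGAT1, at 0.644 (permutation p = 0.00844), with rho = 0.539 (permutation p = 0.0401, adjusted p = 0.332). It was 0.802 without the 2 animals farthest from the PNPLA3 median, 0.684 within control animals (exact permutation p = 0.0883) and 0.712 within high-oleic animals (exact permutation p = 0.0536). PNPLA2 with DGAT1 gave 0.578 (permutation p = 0.0207, adjusted p = 0.239) and rho = 0.486 (permutation p = 0.0707, adjusted p = 0.332). LEP gave r = 0.626 with PNPLA3 (permutation p = 0.0127, adjusted p = 0.407 over 32 relations with marker sums) and rho = 0.586 (permutation p = 0.0251). It was 0.426 without control animals 1 and 7, 0.285 within control animals and 0.784 within high-oleic animals.

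Live weight at slaughter was 117.2 ± 7.32 kg (SD, n = 7) on the control diet and 109.2 ± 3.52 kg (SD, n = 8) on the high-oleic diet. It ran from 112 to 133 kg in control and from 104.5 to 116 kg in high-oleic animals. Of the high-oleic animals only animal 7, at 116 kg, was heavier than the lightest control animal. Weight and diet can therefore hardly be told apart, and fits with both lean on few animals. With live weight in the fit the diet difference was 0.64 for PNPLA2 (95% interval -0.019 to 1.30), 0.75 for PNPLA3 (-0.12 to 1.62), 0.11 for ABHD5 (-0.51 to 0.73) and -0.046 for PLIN2 (-0.82 to 0.72), with a limma adjusted p of 0.9995 for each. In that fit the values of PNPLA2 and PNPLA3 were no smaller than without weight, with wider intervals, and that of PLIN2 lay near 0. Among animals of 109.5 to 118 kg the difference was 0.63 for PNPLA2, 0.60 for PNPLA3, 0.31 for ABHD5 and -0.19 for PLIN2. At fixed diet, PLIN2 differed by -0.43 per 10 kg of live weight (95% interval -1.01 to 0.16), ABHD5 by -0.13, PNPLA2 by 0.15 and PNPLA3 by 0.0050. In limma the adjusted p was 0.916 for PLIN2, 0.925 for ABHD5, 0.921 for PNPLA2 and 0.999 for PNPLA3, and 0% of all probe sets passed, with 3.81% under 0.05 before adjustment. Control animal 5, the heaviest at 133 kg, had the lowest PLIN2 of all animals, and without it the slope was -0.22 for PLIN2, 0.07 for ABHD5, 0.43 for PNPLA2 and 0.15 for PNPLA3.

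**Figure D5:**
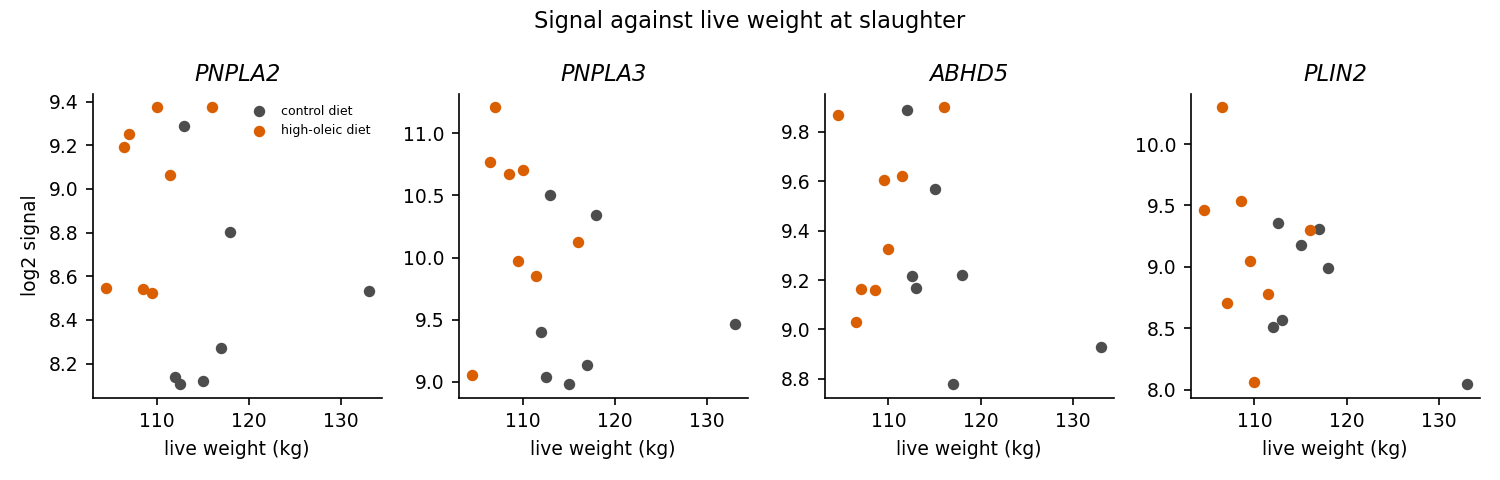
Log2 signal of the 4 genes (y axis) against live weight at slaughter in kg (x axis), 1 point per animal, coloured by diet. Control animal 5 stands alone at 133 kg, with PLIN2 at 8.05; the other animals lie between 104.5 and 118 kg.

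Some measures of the arrays moved with single genes, and none of 20 such relations passed. The signal of spiked control transcripts gave r = 0.488 with PNPLA3 (permutation p = 0.0622, adjusted p = 0.434) and rho = 0.532 (permutation p = 0.0442, adjusted p = 0.294), and r was 0.303 without control animal 1 and high-oleic animal 8. That signal averaged 6.06 ± 0.69 (SD, n = 8) on the high-oleic and 5.74 ± 0.34 (SD, n = 7) on the control diet. With it in the fit the diet difference was 0.59 for PNPLA3 (95% interval -0.076 to 1.25) and 0.45 for PNPLA2 (-0.045 to 0.95). For ABHD5 and the actin 3′ minus 5′ signal r was -0.579 (permutation p = 0.0239, adjusted p = 0.434), rho was -0.539 (permutation p = 0.0407, adjusted p = 0.294) and r was -0.475 without the 2 farthest animals. That signal gave r = 0.457 with PNPLA3 (permutation p = 0.0867, adjusted p = 0.434) and rho = 0.536 (permutation p = 0.0426, adjusted p = 0.294). Without control animal 4 and high-oleic animal 3, the farthest, r with PNPLA3 was 0.813 (permutation p = 0.00141, not adjusted). The mean of the actin signal was 0.90 ± 0.48 (SD, n = 7) on the control and 0.89 ± 0.58 (SD, n = 8) on the high-oleic diet. The part of either measure in the values of these genes was not tested further.

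Marker levels of other cell types overlapped between the diets. The summed signal of 4 of 10 endothelial markers lay between 9.97 and 11.08 on the control and between 9.96 and 11.17 on the high-oleic diet, and that of 8 of 12 skeletal muscle markers between 6.13 and 12.06 and between 6.65 and 11.64. For 9 of 10 smooth muscle and pericyte markers the ranges were 13.11 to 14.65 and 12.76 to 13.65, for 3 of 10 fibroblast markers 12.16 to 13.24 and 11.76 to 13.67, and for 3 of 10 lymphocyte markers 4.65 to 6.56 and 4.85 to 7.25. Erythroid markers, 3 of 6, had medians of 7.60 and 8.45 and gave r = 0.524 with PNPLA2 (permutation p = 0.0457, adjusted p = 0.554), rho = 0.604 (permutation p = 0.0196, adjusted p = 0.402) and r = 0.331 without high-oleic animals 7 and 8. None of the 32 relations between marker sums and the 4 genes passed, and their part in the diet differences was not tested.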

How the data were processed

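Backfat RNA of 15 pigs was measured on 1 Affymetrix porcine array each. The authors deposited 1 table of log2 signals per probe set, made with GCOS and GCRMA per the submitters' processing notes, with versions and settings not stated in those notes. The scale was read from the values, 1.49 to 14.36. Of 3255 tested probe sets, 1455 had 1 gene symbol in the platform annotation, 27 had several and 1773 none.

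Diets were compared with limma 3.58.1 in R 4.3.3 (lmFit, eBayes; high-oleic minus control; Benjamini-Hochberg over all 3255; threshold 0.05). The fit was checked on simulated data only with diet differences larger than those of the 4 genes. Live weight slopes had diet in the fit. Correlations used 100000 permutations, or all orders within a diet. Named were the members, every measured gene of the pathway lists, and per member the 5 genes with the highest and the 3 with the lowest r. Members, lists, the weight window and the spiked covariate were chosen with earlier results of these data known. Alternatives are given in the closing section. Sequences of the members were not used here.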

Additional observations from a re-analysis of the deposited data

Results flagged for a closer look

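Within each diet, 46 sets of values were searched for an animal standing away from the rest, over the 4 genes, their 6 pairwise differences, 11 pathway genes, live weight and the spiked signal, and 1 such animal was found. Chance gives about 1 in 20, or 2.3 among 46, so 1 is no more than chance gives. Control animal 5 weighed 133 kg, and the 6 other control animals had a median live weight of 114 kg. In that animal PLIN2 was 8.05, the lowest of the 15, ABHD5 8.93, PNPLA2 8.53 and PNPLA3 9.47.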

How the results depend on the processing

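The 4 diet differences stayed short of the threshold under every alternative tried, and their signs held for PNPLA2, PNPLA3 and ABHD5. Leaving out each animal gave 0.46 to 0.65 for PNPLA2, 0.61 to 0.92 for PNPLA3, 0.13 to 0.31 for ABHD5 and 0.13 to 0.45 for PLIN2. PLIN2 turned to -0.046 with live weight as a covariate and to -0.19 in animals of 109.5 to 118 kg. The count of probe sets past the threshold was 1 (CKB) with the spiked signal as a covariate and 0 in all other diet fits. For live weight it was 0 to 5 over animals left out, namely 5 without control animal 2 (2 of TTN, NEB, KLHL41 and 1 unnamed) and 2 without high-oleic animal 7 (PDK4 and 1 unnamed). The weight slope of PNPLA3 was -0.052 with median centring, -0.19 with the set of animal numbers as a covariate, and -0.17 to 0.15 over animals left out, where that of ABHD5 was -0.24 to 0.072.

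Apart from PNPLA3 with ABHD5, which stayed negative (-0.45 to -0.13 over animals left out), the weak correlations had no stable sign. Within animals 5 to 8, an alternative added after seeing the data, PNPLA2 gave 0.213 with ABHD5 and 0.050 with PLIN2, PNPLA3 0.300 with PLIN2, ABHD5 0.080 with PLIN2, and PNPLA2 0.698 with PNPLA3. PNPLA2 with ABHD5 was 0.015 with median centring, 0.12 with quantile normalization and -0.21 to 0.13 over animals left out. ABHD5 with PLIN2 was 0.031 with diet and the spiked signal removed, and -0.20 to 0.18 over animals left out. PNPLA2 with PLIN2 ranged from -0.36 to 0.051 and PNPLA3 with PLIN2 from -0.30 to 0.10. The difference of ABHD5 minus PLIN2 was 0.15 with live weight as a covariate and -0.24 to 0.14 over animals left out. VPS13C, whose signal was low, was 0.36 with live weight as a covariate and -0.18 to 0.13 over animals left out. Over animals left out ABHD4 was -0.0083 to 0.20 and DGAT1 -0.040 to 0.17. The causes were not tested.

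Animal numbers occur in both diets. Deviations of same-numbered animals correlated between -0.16 and 0.30, over 0.1 in 4 of 7 pairs. Of 14 animals, 5 correlated best with their own number, and how many would do so by chance was not computed. Animals 1 to 4 and 5 to 8 also differed in array measures on both diets. These values do not settle whether the numbers mark pairs, and the main fits did not pair the animals. With animal number as a block 0 probe sets passed. The diet differences in that fit were 0.49 for PNPLA2, 0.67 for PNPLA3, 0.27 for ABHD5 and 0.13 for PLIN2. Its weight slopes were 0.045 for PLIN2, -0.0038 for PNPLA2 and -0.25 for PNPLA3. PNPLA2 with PNPLA3 gave r = 0.811 over 7 number differences (exact permutation p = 0.0315, adjusted p = 0.189), with fewer values to permute. High-oleic animal 8 has no partner and is left out there.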
